A study of Danio rerio with 6 samples.

Results

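The miR-148/miR-152 family of zebrafish was followed in 3 libraries of control ZF4 cells and 3 libraries of cold acclimated ZF4 cells. By the study's abstract, the control cells were kept at 28°C for 30 days. The cold acclimated cells were cultured in the same medium at 18°C for 30 days. ZF4 is a fibroblast line from zebrafish embryos, so all 6 libraries come from 1 cell line, and the series describes them as biological replicates. The family was taken by name, as every miRNA of the deposited table called dre-miR-148 or dre-miR-152 with any letter or arm suffix. This gave 2 of 414 miRNAs, dre-miR-148 and dre-miR-152, neither with an arm suffix. Levels are in TPM, which in this table means reads per 1000000 miRNA reads without a correction for length.

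A miRNA is loaded into an Argonaute protein and finds its target mRNAs mainly through its seed, the bases near its 5′ end. miR-148 and miR-152 carry the same seed, so in principle they can act on the same mRNAs, and they are counted as 1 family. In human cells the family is known for repressing the DNA methyltransferases DNMT1 and DNMT3B, and miR-148a is known as an abundant miRNA of mammalian liver. In the RefSeq annotation of the zebrafish assembly GRCz12tu, the hairpin gene dre-mir-152 lies within the span of copz2, which encodes a subunit of the COPI vesicle coat, and dre-mir-148 within the annotated span of hnrnpa3, an RNA-binding protein gene. Both hairpins have a gene of an NFE2-like transcription factor as a neighbour, nfe2l1a beside dre-mir-152 and nfe2l2a beside dre-mir-148. Hox genes lie close by on the same chromosome, hoxb1a in the case of dre-mir-152 and hoxd3a in the case of dre-mir-148.

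Each library held between 11748241 and 14960610 miRNA reads. The fibroblast label fits most of the miRNAs looked up for it. In each library dre-miR-21 had at least 379977 TPM, dre-miR-199-5p 2594, dre-miR-199-3p 2107, dre-miR-143 374 and dre-miR-214 332 TPM. dre-miR-122 of liver, dre-miR-1 and dre-miR-206-3p of muscle, dre-miR-124-3p of neurons, dre-miR-200b-3p of epithelia and dre-miR-451 of red blood cells reached at most 3.72 TPM. The fibroblast miRNA dre-miR-145-5p ran lower, from 10.6 to 142 TPM, and so overlapped dre-miR-9-5p of neurons, which reached 11.9 TPM. Control replicate 3 stood apart in the fibroblast miRNA dre-miR-143, with the lowest level of the 6 libraries, 374 TPM, where the highest held 4765 TPM. Results of the family are therefore given with and without that library.

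Both members were expressed at a moderate level at both temperatures, and neither passed the test for a rise or fall in cold acclimated cells, an adjusted p under 0.01 from limma. dre-miR-148 was the more abundant, at place 54 to 63 of the 414 miRNAs in every library, and dre-miR-152 stood at place 90 to 98. Together they made up 0.0786% to 0.106% of the miRNA reads. Thus 0 of 2 members were called (unadjusted p = 0.194 and 0.775 from limma), whereas the same test called 31.0% of the 310 miRNAs with enough reads to be tested, of which 51 rose (16.5%) and 45 fell (14.5%). Without cold acclimation replicate 1 these were 24 and 18, and without control replicate 3 they were 68 and 67. With the fold change of 2.5 that the study also asked of a differentially expressed miRNA (DE-miRNA), 11.6% were called.

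dre-miR-148 had 653, 622 and 778 TPM in control replicates 1, 2 and 3, and 639, 567 and 550 TPM in cold acclimation replicates 1, 2 and 3. The highest cold acclimation library lay between the control libraries, so the conditions overlapped, and the library with the most dre-miR-148 was control replicate 3. The control mean was 684 ± 82.7 TPM and the cold acclimation mean 585 ± 47.3 TPM (SD, n = 3 each). On log2(TPM + 1) the difference was -0.22 (standard error 0.16, adjusted p = 0.272 from limma with Benjamini-Hochberg adjustment over the 310 miRNAs). Its 95% interval ran from -0.57 to 0.13, that is from 0.672 to 1.10 times the control level. A 2.5-fold change in either direction lies outside this interval.

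dre-miR-152 had 205, 193 and 279 TPM in control replicates 1, 2 and 3, and 234, 219 and 240 TPM in cold acclimation replicates 1, 2 and 3. All cold acclimation libraries lay inside the range of the controls, above replicates 1 and 2 and below replicate 3. The control mean was 225 ± 46.6 TPM and the cold acclimation mean 231 ± 10.8 TPM (SD, n = 3 each). The difference on log2(TPM + 1) was 0.055 (standard error 0.19, adjusted p = 0.858 from limma), with a 95% interval from -0.36 to 0.47, or 0.777 to 1.39 times the control level. Here too a 2.5-fold change lies outside the interval.

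**Figure D1:**
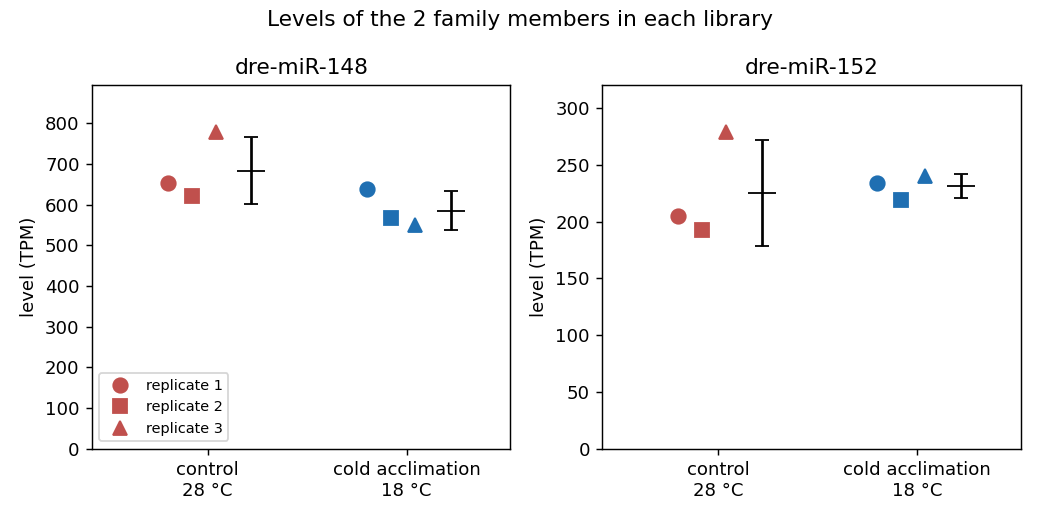
Levels of dre-miR-148 (left) and dre-miR-152 (right) in TPM, with 1 point for each of 3 control and 3 cold acclimation libraries, the symbol giving the replicate number, and the bar beside them the mean and SD. The points of the conditions overlap in both panels, and control replicate 3 is the highest library for both miRNAs.

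Among the 310 miRNAs tested, these were small differences. Over all of them the size of the log2 fold change had a median of 0.59, 22.3% had a smaller one than dre-miR-148, and 8.39% a smaller one than dre-miR-152. Control and cold acclimation libraries did not overlap for 58.1% of the tested miRNAs, and they overlapped for both members of the family. dre-miR-148 rested on 6657 to 11279 reads a library and dre-miR-152 on 2576 to 4040, as worked out from the value of 1 read. Counting error at the lowest of these is 1.23% and 1.97% of the level. The coefficient of variation among the control libraries was 12.1% for dre-miR-148 and 20.7% for dre-miR-152, and among the cold acclimation libraries 8.08% and 4.66%. These counting errors treat reads as independent molecules and cover counting alone.

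Control replicate 3 carried 1.22 times the mean dre-miR-148 and 1.40 times the mean dre-miR-152 of control replicates 1 and 2. Without it, the control means were 637 ± 21.9 TPM for dre-miR-148 and 199 ± 8.37 TPM for dre-miR-152 (SD, n = 2 each). The log2 fold change of dre-miR-148 then moved to -0.12 (adjusted p = 0.500 from limma) and that of dre-miR-152 to 0.22 (adjusted p = 0.270 from limma). Every cold acclimation library then held more dre-miR-152 than the remaining controls, from 219 TPM against at most 205 TPM. How many of all tested miRNAs separated without control replicate 3 was not worked out, while 58.1% did with all 6 libraries. The direction of dre-miR-152 therefore depended on the library left out, since it was -0.0046 without control replicate 1 and -0.047 without control replicate 2. No library left out brought either member to an adjusted p under 0.01.

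Other scalings of the libraries moved both members down. The miRNA reads to which TPM is scaled were 87.6% to 96.9% of the clean reads at 28°C but 68.9% to 81.8% at 18°C. The study states nearly equal shares of reads mapped to zebrafish non-coding RNA at both temperatures. That share counts perfect matches to all classes of non-coding RNA, so it is not the same measure as the miRNA share. The miRNA share was above the study's control share in control replicates 1 and 2, and below its cold acclimation share in every cold acclimation library. Why these shares differ, and whether the miRNA totals and the clean reads are on the same footing, was not tested. Per 1000000 clean reads, dre-miR-148 no longer overlapped, with 563 to 681 in the control libraries against 412 to 450 in the cold acclimation libraries. Its log2 fold change was -0.52 (adjusted p = 0.0106 from limma, against a threshold of 0.01), with a 95% interval from -0.83 to -0.22. dre-miR-152 still overlapped, and its log2 fold change came to -0.25 (adjusted p = 0.274, limma). This scaling also lowered the median of all tested miRNAs by 0.247. Relative to the median of all tested miRNAs, dre-miR-148 stood at -0.24 in TPM, at -0.29 per 1000000 clean reads and at -0.25 with median-of-ratios scaling. dre-miR-152 stood at 0.036, -0.017 and 0.025 in the same order, each within its standard error in TPM of 0.19. With median-of-ratios scaling, control and cold acclimation libraries did not overlap for dre-miR-148 (611 to 786 against 483 to 605 scaled TPM). Its log2 fold change was then -0.31 (adjusted p = 0.113, limma). The share of all tested miRNAs that separated was 58.1% in TPM, and was not worked out for either of the other scalings. Whether the separation of dre-miR-148 under them was unusual was therefore not tested.

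**Figure D2:**
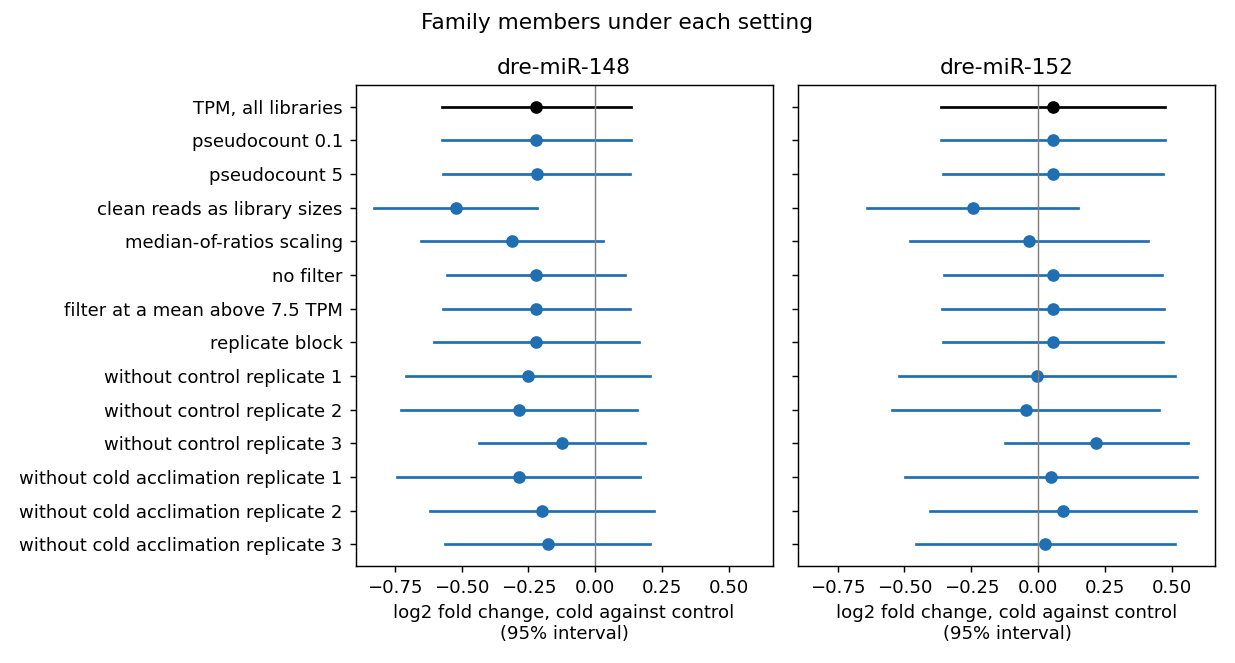
log2 fold change of dre-miR-148 (left) and dre-miR-152 (right), cold acclimation against control, with its 95% interval from limma, for the values in TPM (black) and for each other setting (blue). The interval of dre-miR-148 leaves 0 outside only with clean reads as library sizes, from -0.83 to -0.22, and that of dre-miR-152 holds 0 in every setting shown.

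The balance between the members does not depend on the scaling, because both come from the same library. There were 3.19, 3.23 and 2.79 reads of dre-miR-148 for each read of dre-miR-152 in control replicates 1, 2 and 3, and 2.73, 2.58 and 2.29 in cold acclimation replicates 1, 2 and 3. The ratios of the conditions did not overlap, but the gap was only 0.060, between control replicate 3 and cold acclimation replicate 1. The mean ratio was 3.07 ± 0.241 at 28°C and 2.54 ± 0.225 at 18°C (SD, n = 3 each), and dre-miR-152 made up 24.6% ± 1.51 and 28.4% ± 1.84 of the family's reads. On the log2 scale the ratio differed by -0.28 (exact two-sided permutation test, p = 0.1, which is the lowest value possible with 3 libraries on each side). It kept this sign with any library left out, from -0.34 without control replicate 3 to -0.21 without cold acclimation replicate 3. Such a separation was common in these libraries. Among all 47895 pairs of tested miRNAs, 59.8% had ratios that did not overlap between the conditions, the median size of the difference was 0.93 on the log2 scale, and 15.9% of the pairs had a smaller one than dre-miR-148 and dre-miR-152. The sources used here do not say how a read matching both members was counted, and near-identical miRNAs may share reads.

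The family as a whole had 857, 814 and 1057 TPM in control replicates 1, 2 and 3, and 873, 786 and 791 TPM in cold acclimation replicates 1, 2 and 3. The conditions overlapped, with cold acclimation replicate 1 above the lower controls. The means were 909 ± 129 TPM and 817 ± 49.0 TPM (SD, n = 3 each), a log2 difference of -0.15 (p = 0.3 in the exact two-sided permutation test, which cannot go below 0.1). Without control replicate 3 this difference was -0.035 (exact permutation test, p = 0.6), and per 1000000 clean reads it was -0.45 (exact permutation test, p = 0.1).

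**Figure D3:**
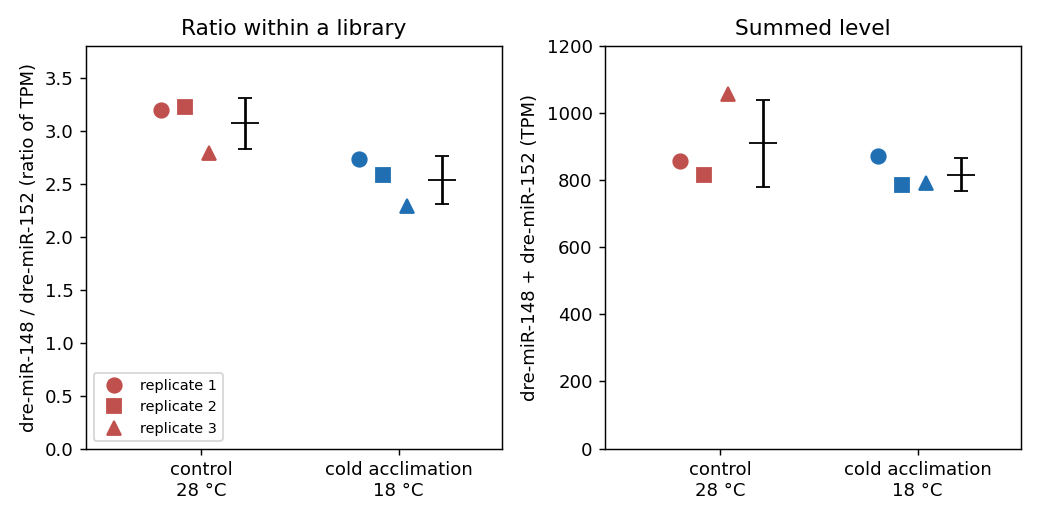
Ratio of dre-miR-148 to dre-miR-152 within each library (left, ratio of TPM) and their summed level (right, TPM), with 1 point per library, the symbol giving the replicate number, and the mean and SD beside them. The ratio lies between 2.79 and 3.23 in the control libraries and between 2.29 and 2.73 in the cold acclimation libraries, while the summed levels overlap.

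In the order of levels over all 6 libraries, dre-miR-148 stood between dre-miR-22b-3p and dre-miR-130b. dre-miR-22b-3p had 646 ± 41.5 TPM at 28°C and 636 ± 136 TPM at 18°C, and was above dre-miR-148 in 4 of 6 libraries. dre-miR-130b lay below dre-miR-148 at 28°C, with 421 ± 99.3 TPM, and rose to 824 ± 230 TPM at 18°C (SD, n = 3 each). dre-miR-152 stood between dre-miR-193b-5p, which rose from 98.7 ± 21.1 to 401 ± 73.6 TPM, and dre-miR-16c-3p, which fell from 280.0 ± 7.71 to 164 ± 16.7 TPM. Except for dre-miR-22b-3p, the mean places of these neighbours are thus averages over levels that differed between the conditions. dre-miR-193b-5p and dre-miR-16c-3p were each above dre-miR-152 in 3 of 6 libraries.

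The miRNAs most like the members in profile were looked up among the known ones. Likeness was measured as the root mean square difference of the log2(TPM + 1) profiles over the 6 libraries, each centred on its mean, against the other 244 known miRNAs tested. For dre-miR-148 the nearest were dre-miR-29b3-3p (0.093), dre-let-7h (0.11), dre-miR-30e-3p (0.12), dre-miR-16a (0.13) and dre-miR-140-5p (0.14), where the median miRNA stood at 0.39. For dre-miR-152 they were dre-miR-30e-3p (0.11), dre-miR-31 (0.12), dre-let-7h (0.13), dre-miR-21 (0.16) and dre-miR-23b (0.17), with the median at 0.42. Since they were chosen for their profile, their own levels say nothing further about the family. Their level in control replicate 3 ran from 1.02 times the mean of the other controls for dre-miR-21 to 1.45 times for dre-miR-31. The members differed from each other by 0.17, which put dre-miR-152 at place 16 in likeness to dre-miR-148 and dre-miR-148 at place 7 in likeness to dre-miR-152.

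Set beside the family was the group of miR-130, miR-301 and miR-454, whose main strands carry most of the family's seed bases, shifted by a position. Of its 11 members, 10 were tested, 2 rose and 0 fell (20% and 0%, against 16.5% and 14.5% of all tested), with a median log2 fold change of -0.014 against 0.019 over all tested miRNAs. The 10 include the partner strands dre-miR-301b-5p and dre-miR-130c-5p, and dre-miR-130b was the only main strand that rose. At an unadjusted p under 0.05 from limma, 3 were higher and 3 lower, beside 28.4% and 27.7% of all tested miRNAs. dre-miR-301b-5p, a partner strand without that seed, went up from 2.92 ± 1.16 to 13.2 ± 1.98 TPM, a log2 fold change of 1.89 (SD, n = 3 each; adjusted p = 0.00032, limma). dre-miR-130b rose by 0.96 on the log2 scale (adjusted p = 0.0094, limma). This call was lost with a pseudocount of 0.1, without a filter or with a stricter one, and with clean reads as library sizes. The same held without control replicate 1 and with any cold acclimation replicate left out. The most abundant member, dre-miR-454b, had 1079 ± 271 and 1720 ± 129 TPM (log2 fold change 0.70, adjusted p = 0.0140 from limma). Control and cold acclimation libraries did not overlap for 6 of the 10, a share near the 58.1% of all tested miRNAs. Without control replicate 3, when 68 and 67 of all 310 rose and fell, 3 members rose and 3 fell. Furthermore, 3 rose without control replicate 2, when 39 of all 310 did. With any other library left out 1 rose, when 24 to 42 of all 310 did.

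**Figure D4:**
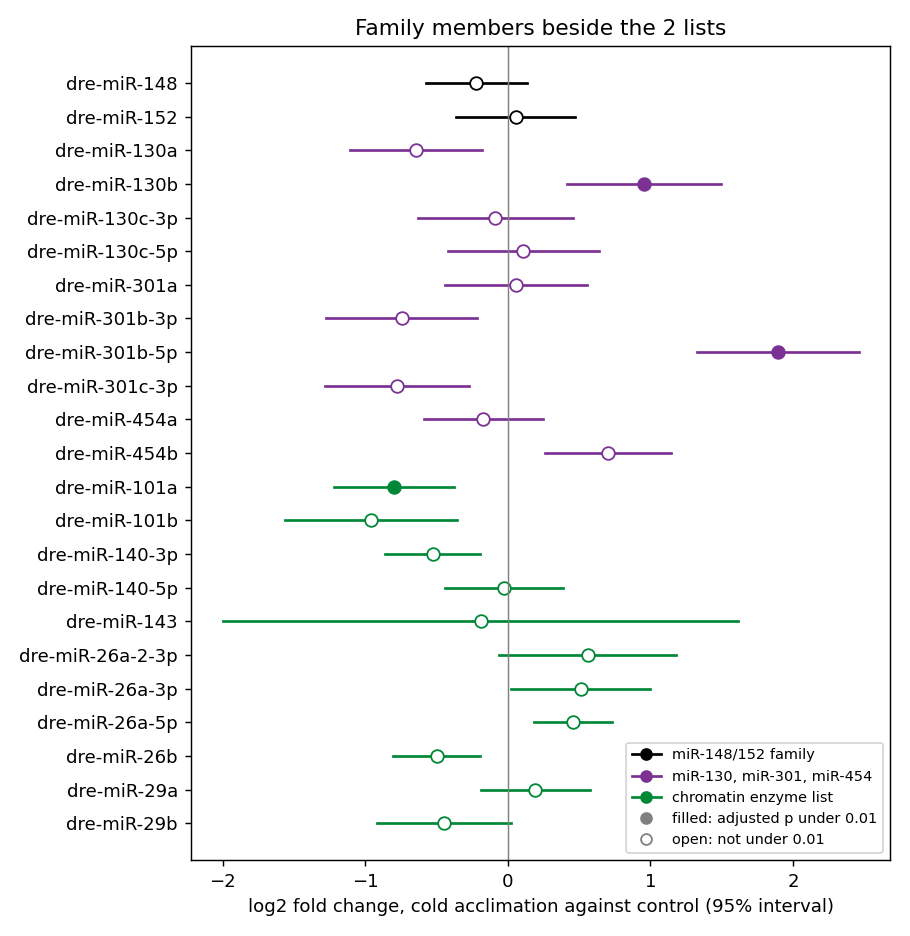
log2 fold change, cold acclimation against control, with its 95% interval from limma. The family is black and the miR-130, miR-301 and miR-454 members are purple. Green marks the list set by names of miRNAs known in mammals to repress chromatin enzymes. Filled points have an adjusted p under 0.01. The points of dre-miR-148 and dre-miR-152, at -0.22 and 0.055, are open, and 3 others are filled.

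A list was also set by names of miRNAs known in mammals to repress enzymes of DNA methylation or histones, like miR-148 and miR-152. Among them are miR-29 and miR-143 for DNA methyltransferases, miR-101 and miR-26 for the histone methyltransferase EZH2, and miR-140 for a histone deacetylase. The list took in both strands of a hairpin where both were present, such as dre-miR-26a-3p and dre-miR-140-3p, and the repression was not looked up for each strand. Of its 14 members, 11 were tested, 0 rose and 1 fell (0% and 9.09%, against 16.5% and 14.5% of all tested), with a median log2 fold change of -0.19 against 0.019. At an unadjusted p under 0.05 from limma, 2 were higher and 4 lower, beside 28.4% and 27.7% of all tested miRNAs. The member that fell was dre-miR-101a, at 724 ± 120 TPM in control and 416 ± 68.9 TPM in cold acclimation libraries, a log2 fold change of -0.80 (SD, n = 3 each; adjusted p = 0.0069, limma). dre-miR-26a-5p, the most abundant, had 20467 ± 2640 TPM at 28°C and 27968 ± 2454 TPM at 18°C (log2 fold change 0.45, adjusted p = 0.0121 from limma). Control and cold acclimation libraries did not overlap for 7 of the 11, beside 58.1% of all tested miRNAs. Without control replicate 3, when 68 and 67 of all 310 rose and fell, 2 members rose and 3 fell. Of the latter, dre-miR-143 had an adjusted p of 9.98e-05 from limma, against 0.890 with all libraries. Its low level in control replicate 3 is what set that library apart, so this call is not separate evidence. Per 1000000 clean reads 5 members fell, when 77 of all 310 did. dre-miR-101a alone fell without control replicate 2, when 29 of all 310 did. No member fell with control replicate 1 or any cold acclimation replicate left out, when 18 to 28 of all 310 did.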

How the data were processed

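Small RNA of 3 control and 3 cold acclimation samples of ZF4 cells was sequenced as single-end reads. After trimming and filtering, the authors used Bowtie2 2.3.0 to align the reads to miRBase 22, and miRCat to predict others. Their deposited table gives 349 known and 65 predicted miRNAs in CPM (called TPM by the authors), so that each library sums to 1000000. Reads per library and per member were obtained by dividing a value by that of 1 read (0.0668 to 0.0851 TPM, largest deviation from a whole number 0.00058 reads). Only 84 to 98 values per library lay within the first 20 multiples, so these reads are estimates. They were used for depth, for the counting errors and for the library totals in the scaling to clean reads, and no count test was run. The conditions were compared on log2(TPM + 1) by limma 3.58.1 (trended eBayes, R 4.3.3) over 310 miRNAs whose mean exceeded 1.5 TPM, with Benjamini-Hochberg adjustment. Adjusted p under 0.01 marks a rise or fall, and a fold change above 2.5 in addition a DE-miRNA. Both thresholds are those of the study, which used DESeq instead of limma and also asked for a mean level above 20. The clean reads used as other library sizes are the totals the study states. Ratios and sums were compared with exact permutation tests.

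The members, the lists and the ratio were chosen with earlier results of these data known, the paper's supplementary read counts among them. Named miRNAs are the members, their neighbours in level, the 5 most like each in profile, and in each list the most abundant and the 2 with the smallest adjusted p. Lists were set by name patterns, which did not take in dre-miR-29b3-3p. The limma script was tested on simulated data. Tools were Python 3.11.15 and matplotlib 3.10.9. Alternatives were other pseudocounts, filters and scalings, a replicate block and each library left out. An adjusted p of 0.05 was added after the data were seen.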

Additional observations from a re-analysis of the deposited data

How the results depend on the processing

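dre-miR-148 kept its direction in all 14 alternatives and stayed short of the threshold of each (log2 fold change -0.52 to -0.12, adjusted p 0.0106 to 0.500 from limma). With the filters, the replicate block and the added threshold the fold change stays the same by construction, so they do not test direction. Pseudocounts hardly move levels this high. The adjusted p of 0.0106 from limma, with clean reads as library sizes, lies under 0.05, the threshold added later. dre-miR-152 turned from 0.055 to -0.25 with clean reads as library sizes and to -0.034 with median-of-ratios scaling, which shifted the median of all tested miRNAs by -0.247 and -0.078, and lay between -0.047 and 0.22 with 1 library left out (adjusted p 0.270 to 0.989 from limma). The cause was not tested. The ratio and the summed level kept their direction in all 9 alternatives each, among them the replicate block, which cannot change it. Over all tested miRNAs, clean reads as library sizes gave 32 that rose and 77 that fell, median-of-ratios scaling 51 and 67, the replicate block 39 and 30, and the 7.5 TPM filter 38 and 32, a threshold of 0.05 for the adjusted p gave 75 and 77, and with 1 library left out 24 to 68 rose and 18 to 67 fell. In the miR-130, miR-301 and miR-454 group 1 rose with pseudocount 0.1, clean reads, no filter or the 7.5 TPM filter. With clean reads or median-of-ratios scaling 3 fell, and with 1 library left out 1 to 3 rose and 0 to 3 fell. In the chromatin enzyme list 5 fell with clean reads, 3 with median-of-ratios scaling and 0 with the replicate block, and with 1 library left out 0 to 2 rose and 0 to 3 fell. The 3 fell without control replicate 3, dre-miR-143 among them.

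Deviations of same-numbered libraries correlated at 0.015, 0.14 and 0.060, and those of differently numbered libraries at -0.089 to 0.0091. Correlations this weak cannot decide whether the replicate numbers pair the samples, so results are given without and with a replicate block. With the replicate block, the adjusted p was 0.288 for dre-miR-148 and 0.832 for dre-miR-152 from limma, and the sign-flip test gave an exact p of 0.25, its smallest, for the ratio and 0.5 for the sum. The count-based alternatives were not run, since the deposited values are normalized. Each library also had under 100 values within the first 20 multiples of 1 read, too few for the check used here to accept recovered reads. That counts cannot be had is not shown, as the values lay within 0.00058 reads of whole numbers. With 3 libraries per condition, an exact test cannot go below p = 0.1.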
